A study of Mus musculus with 6 samples.

Results

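The promoters of 37 nuclear genes of the mitochondrial protein import machinery were examined for CDK6 binding. The genes were taken by symbol from a list that covered the outer and inner membrane translocases, the chaperones between and behind them, and the matrix processing peptidase. All 37 symbols were found among 22015 protein-coding genes of the mouse annotation. Binding was measured by ChIP-seq with an antibody against the HA tag in mouse cell lines of the pre/pro-B stage, transformed by BCR-ABL(p185) and Cdk6-/- in every group. The lines came from bone marrow of C57BL/6 mice and overexpressed, from a retroviral vector, HA-tagged wildtype CDK6 (CDK6-WT, n = 2) or the HA-tagged kinase-inactive mutant (CDK6-K43M, n = 2), so the comparison asks whether kinase activity changes occupancy. Proteins were crosslinked with DSG before formaldehyde, a procedure that also holds proteins that reach DNA through other proteins. The 2 input libraries were not analysed here, and the labels do not say whether the 2 libraries of a variant came from separate cultures, so any p-value measures only the spread between these libraries.

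Nearly every mitochondrial protein is made in the cytosol and has to be imported. Precursors pass the outer membrane through the TOM channel and are then sorted. Barrel proteins are handed to the SAM complex by small TIM chaperones, cysteine-rich proteins are folded in the intermembrane space by the MIA pathway, carriers enter the inner membrane through TIM22, and proteins with a presequence pass through TIM23. An Hsp70 motor pulls the latter into the matrix, where the processing peptidase removes the presequence and the chaperonin folds the protein. CDK6 is a cell cycle kinase without a DNA-binding domain that also joins chromatin complexes.

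Core motifs were searched on both strands within 100 bp of the summit of each gene's strongest promoter peak. The core CCGGAAG, the sequence bound by ETS family factors, lay there at 17 of the 37 genes. The stretches below show the match nearest to the summit at genes of different steps of import, with 11 bases to either side. Each is given 5′ to 3′ on the strand that reads CCGGAAG, and the capitals mark the core.
Tomm34 (mm10 chr2:164071191-164071219, + strand): gagctaagcggCCGGAAGagtgggctcaa
Tomm40 (chr7:19715985-19716013, + strand): cgacggtaaagCCGGAAGtgctgcccctt
Mtx2 (chr2:74825807-74825835, + strand): tgtcagcgacgCCGGAAGtgcttggtcgg
Timm8b (chr9:50603878-50603906, + strand): tgaagcgtgaaCCGGAAGgcaggagacgg
Timm23 (chr14:32201864-32201892, − strand): ggagccggcgcCCGGAAGgtcagcgtggt
Hspd1 and Hspe1 (chr1:55088057-55088085, − strand): cgcggggccttCCGGAAGgttctagaacg
Pmpca (chr2:26389284-26389312, + strand): ggctcggcgggCCGGAAGccagcgccgaa
Pmpcb (chr5:21737133-21737161, + strand): ggagtcatgacCCGGAAGtacatctccac

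The heat shock element core TTCNNGAA, bound by heat shock factors, lay at 5 genes, and the NRF-1 core GCATGCGC, bound by the regulator of respiration genes, at 2. Hspd1 and Hspe1 share a single peak whose window held 2 matches, TTCTAGAA and TTCCGGAA, and the latter lay inside a palindrome, CTTCCGGAAG, that reads as an ETS core on both strands. Timm13 had a TTCNNGAA match without an ETS core. At Tomm22 the match TTCCGGAA lay inside the same palindrome. The next stretches show in capitals the palindrome of Tomm22 and otherwise the match nearest to the summit, with Tomm22 and Timm13 on the strand of the gene and outside annotated UTRs.
Tomm22, palindrome with 2 of its 3 ETS matches (mm10 chr15:79670755-79670860, + strand): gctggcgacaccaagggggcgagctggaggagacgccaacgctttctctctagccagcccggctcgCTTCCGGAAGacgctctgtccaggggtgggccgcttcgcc
Timm13, TTCNNGAA (chr10:80900970-80901072, − strand): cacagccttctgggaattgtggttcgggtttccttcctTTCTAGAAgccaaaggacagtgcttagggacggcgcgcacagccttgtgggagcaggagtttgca
Hspd1 and Hspe1, TTCNNGAA (chr1:55088048-55088077, + strand): gccacggtccgTTCTAGAAccttccggaag
Tomm7, NRF-1 (chr5:23844138-23844167, + strand): agaggagctgcGCATGCGCcacgtggggcc
Timm9, NRF-1 (chr12:71137150-71137179, − strand): agcgtcagcacGCATGCGCgcaaagatcca

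The 4 peak lists held 34729 to 39797 peaks with median widths of 297 bp to 324 bp. Read totals are not in the lists, but the number of reads at each summit could be solved from the fold enrichment and the −log10 p, and gave whole reads for 100% of the peaks. Depth was taken as the lowest background reads in a list divided by the width of its narrowest peak, which assumes that this width is the fragment length. The depth so recovered was 10.08 (replicate 1) and 10.49 (replicate 2) reads per kb with CDK6-WT. With CDK6-K43M it was 12.04 and 9.563 reads per kb. The libraries stood apart by replicate number, so values are given within each number throughout. Of 8 genes that mark pre/pro-B cells, 7 had a promoter peak in both replicate 1 lists and 8 in both replicate 2 lists, while none of 8 genes of other cell types had a peak in any list. A promoter peak is not a measure of expression.

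Import gene promoters were occupied by both forms of CDK6. A gene counted as occupied when at least 1 bp of a peak fell between 2000 bp upstream and 200 bp downstream of any of its transcript starts. In replicate 1, 37 of 37 genes had such a peak with CDK6-WT and 37 of 37 with CDK6-K43M, against 47.1% and 48.5% of all protein-coding genes. In replicate 2, 31 of 37 had a peak with CDK6-WT (83.8%) and 30 with CDK6-K43M (81.1%), against 40.1% and 39.4% of all protein-coding genes. The mean number of occupied genes was 34.0 ± 4.24 for CDK6-WT and 33.5 ± 4.95 for CDK6-K43M (SD, n = 2 each). The variants therefore differed by -0.5 genes, with 0.0 within replicate 1 and -1.0 within replicate 2. The mean difference is less than the spread between libraries of the same variant, but that spread includes the split by replicate number.

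A region was called bound by both variants when at least 3 of the 4 lists had a peak in it, and unique when both lists of a single variant had a peak and those of the other had none. Of the 37 genes, 33 had a promoter region bound by both (89.2%), compared with 41.3% of all protein-coding genes. Every list had a peak at 28 genes (75.7%), compared with 33.2%. With a minimum −log10 q of 10 these counts were 17 and 11, and with the top 10000 peaks per list 15 and 9. No share of all genes is given at these settings, so whether the members fell more or less than other genes is not shown. No member had a region unique to CDK6-WT or unique to CDK6-K43M. Such regions were rare in general, at 49 and 157 of the 22015 protein-coding genes. The genes without a peak in some list followed the replicate number. Timm8a1, Timm17b, Dnajc15 and Pam16 had peaks in both replicate 1 lists and in no replicate 2 list (10.8% of the members), and 0 members showed the opposite. The same pattern held for 5.68% of all protein-coding genes, or 11.0% of the 11403 genes with a peak in any list, a share close to that of the members. Absence from a list means that no peak passed the q-value threshold of the authors, not that reads were missing.

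**Figure D1:**
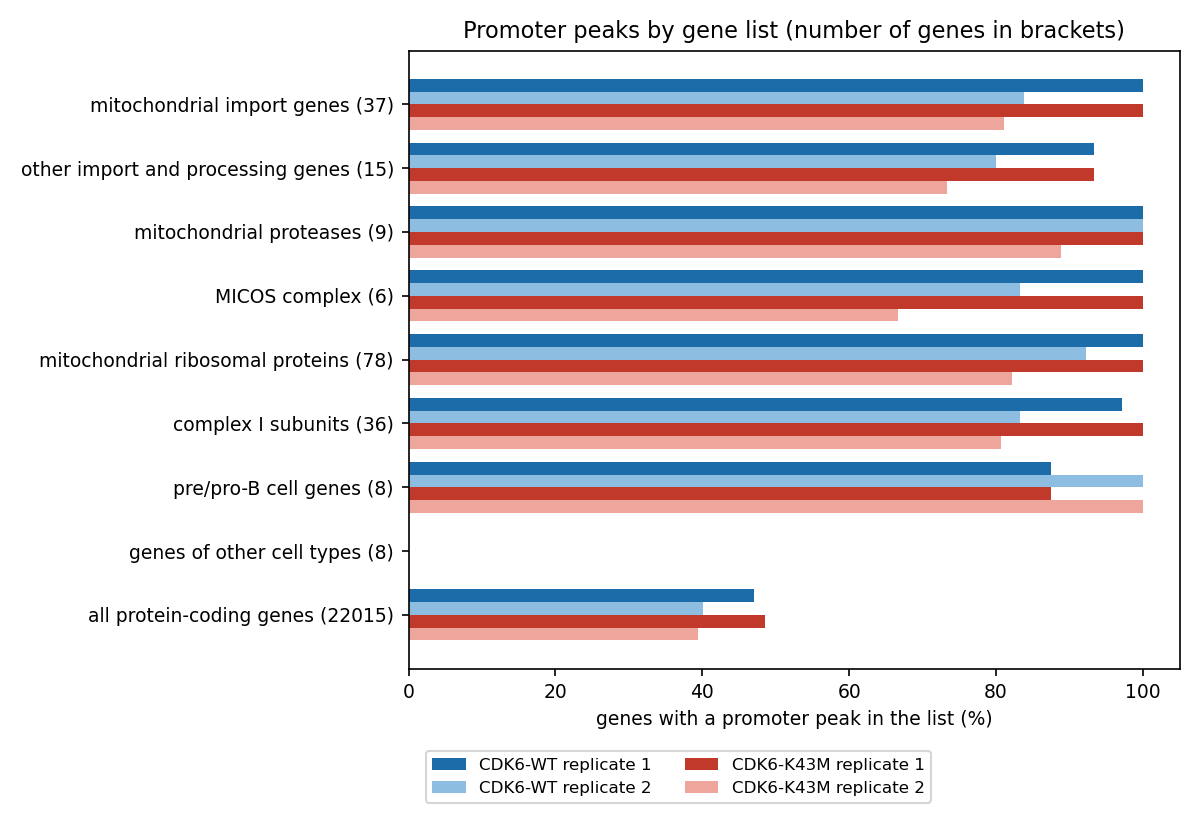
Share of the genes of each list (percent, horizontal axis) with a promoter peak in each of the 4 libraries, with the number of genes in brackets. Bars of the import genes reach 100% in both replicate 1 libraries and 83.8% and 81.1% in the replicate 2 libraries, while those of all protein-coding genes lie between 39.4% and 48.5% and those of genes of other cell types are at 0.

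To compare the strength of peaks, the strongest promoter peak of each gene was given its percentile of −log10 q among the peaks of its own list, with 100 at the top. Among the members with a peak, the median percentile was 90.9 and 59.3 in CDK6-WT replicates 1 and 2, and 92.8 and 66.5 in CDK6-K43M replicates 1 and 2. For all protein-coding genes with a promoter peak the medians were 78.9, 59.6, 80.4 and 58.4. Import genes with a peak thus ranked above the typical occupied promoter in both replicate 1 lists. They lay close to it in CDK6-WT replicate 2, and above it in CDK6-K43M replicate 2 (66.5 against 58.4). In reads, the median summit held 40 (range 11 to 77) and 20 (10 to 74) for CDK6-WT, and 48 (16 to 88) and 18 (10 to 52) for CDK6-K43M. Scaled to a depth of 10 reads per kb, the medians were 39.7 and 39.9 reads for CDK6-WT and CDK6-K43M in replicate 1, and 19.1 and 18.8 in replicate 2, so these medians lay further apart between replicate numbers than between variants.

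**Figure D2:**
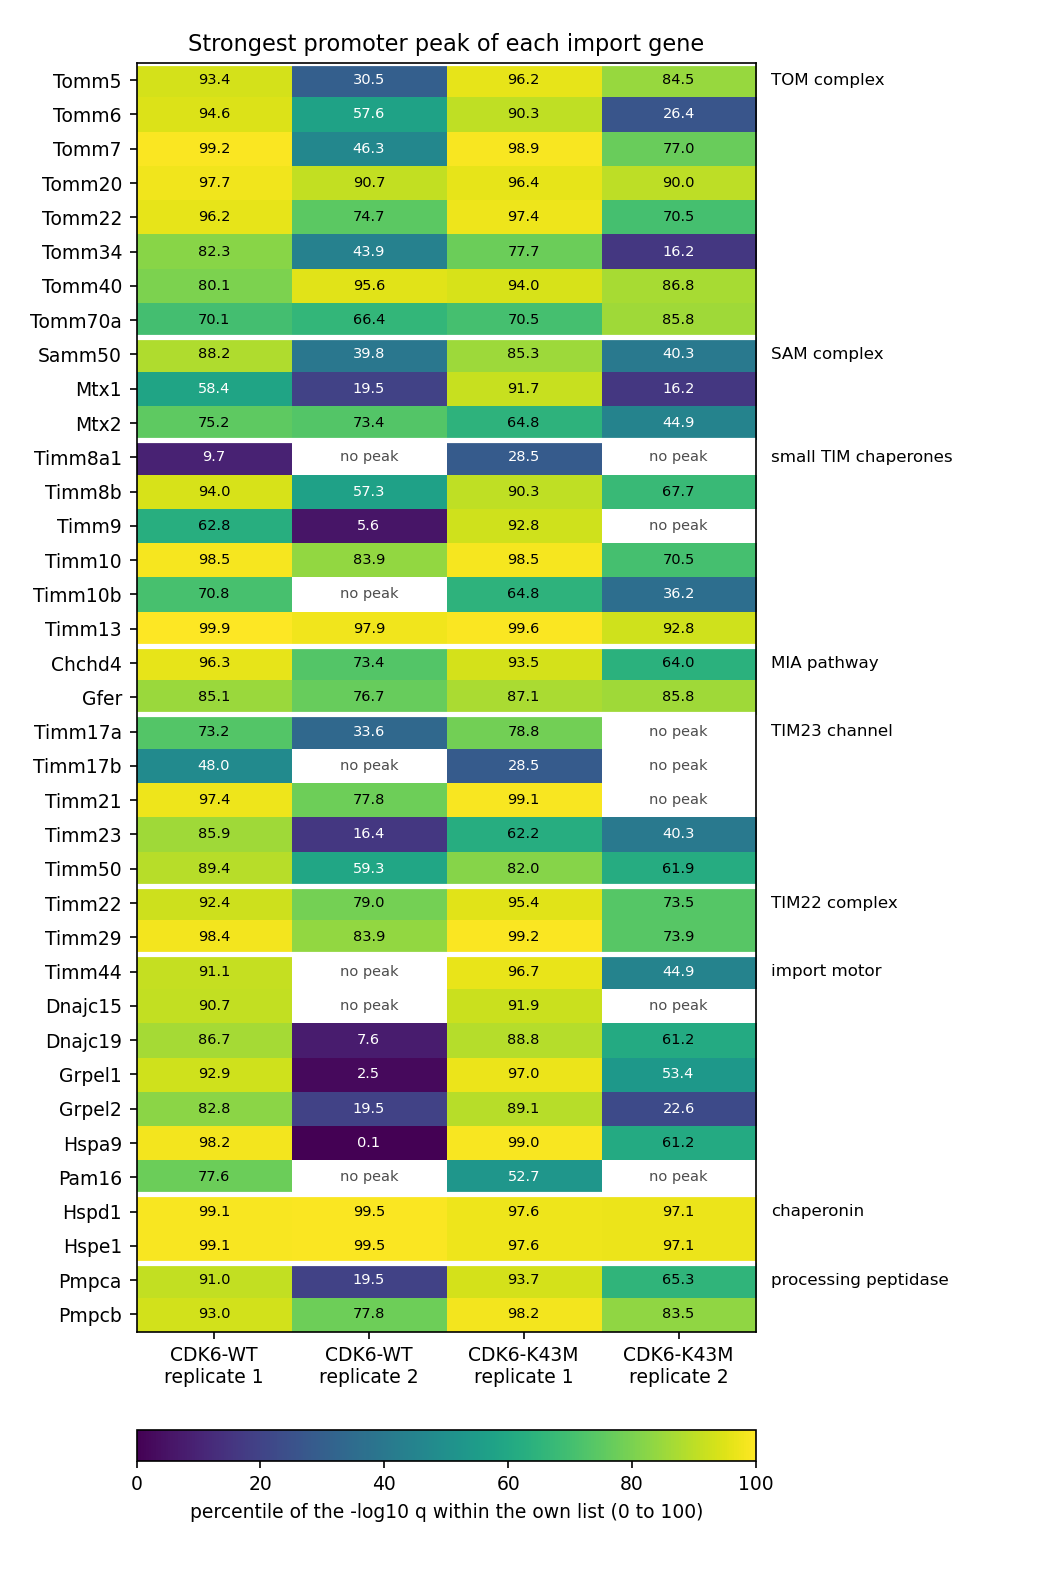
Percentile of −log10 q of the strongest promoter peak within its own list (colour, 0 to 100) for the 37 import genes (rows, by role, with Tomm34 among the TOM genes) in the 4 libraries (columns). White cells had no peak, and they lie only in the replicate 2 columns (6 with CDK6-WT and 7 with CDK6-K43M).

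The 8 TOM genes had a peak in all 4 lists. Tomm20, a receptor for presequences, was the strongest of them by mean percentile, with values of 97.68 and 90.66 with CDK6-WT and 96.38 and 90.02 with CDK6-K43M (replicates 1 and 2, an order used from here on). Its summits held 59, 30, 66 and 26 reads. Tomm20 stood high in each library, and the variants overlapped. Tomm34, a cytosolic cochaperone rather than a part of the channel, was the lowest, with 82.29 and 43.87 with CDK6-WT and 77.66 and 16.24 with CDK6-K43M. Its lowest value stood on 10 reads. Tomm40, the channel itself, had 80.12, 95.57, 93.99 and 86.78, and was the TOM gene at which CDK6-WT replicate 2 lay above CDK6-WT replicate 1. Tomm70a, the receptor for carriers and chaperone-bound precursors, had 70.13 and 66.40 with CDK6-WT and 70.45 and 85.77 with CDK6-K43M. The groups did not overlap there, but the replicate 1 libraries differed by only 0.326 percentile points. The remaining TOM genes, Tomm5, Tomm6, Tomm7 and Tomm22, had mean percentiles over the 4 libraries of 76.16, 67.24, 80.36 and 84.69. Tomm5 had 93.42 and 30.46 with CDK6-WT and 96.25 and 84.50 with CDK6-K43M. Tomm6 had 94.62, 57.62, 90.34 and 26.36, and Tomm7 99.23, 46.30, 98.89 and 77.01. Tomm22 had 96.15, 74.70, 97.43 and 70.47.

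The 3 SAM genes also had a peak in all 4 lists. Mtx2, a metaxin that brings precursors to the complex, had the largest difference towards CDK6-WT among the genes whose variants did not overlap. CDK6-WT gave percentiles of 75.22 and 73.42, and CDK6-K43M gave 64.77 and 44.87. Its summits held 28, 21, 28 and 13 reads, so in replicate 1 the read numbers were equal while the depth was higher for CDK6-K43M. Mtx1, the other metaxin, had the lowest mean percentile among the genes with a peak in all lists (46.48), with 58.39 and 19.54 with CDK6-WT and 91.73 and 16.24 with CDK6-K43M. These values came from different sites. The 18 annotated Mtx1 transcript starts gave it 3 regions, and the strongest CDK6-K43M replicate 1 peak (chr3:89228181-89228474) lay 737 bp from the start of Muc1 and 1232 bp before the nearest Mtx1 start. Samm50, the core of the complex, had 88.17, 39.84, 85.31 and 40.31, with differences between the variants of -2.86 points in replicate 1 and 0.468 in replicate 2.

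Small TIM chaperones covered nearly the whole range. Timm13, which guides precursors across the intermembrane space with Timm8, was at 99.93 and 97.93 with CDK6-WT and at 99.59 and 92.76 with CDK6-K43M. Its summits held 77, 45, 76 and 29 reads over a background of 1.54 to 1.90. In each library this was the lowest background among the members. Its deposited fold enrichment, which adds 1 to the scaled reads and 1 to the scaled background before division, was 30.32, 16.35, 24.64 and 11.68. Timm13 ranked near the top in each library, and in each variant replicate 1 exceeded replicate 2. Timm8a1, by contrast, had peaks of 9.682 (CDK6-WT) and 28.54 (CDK6-K43M) in the replicate 1 lists on 11 and 16 reads and none in replicate 2. Timm9, a partner of Timm10, had 62.84 and 5.629 for CDK6-WT and 92.82 in CDK6-K43M replicate 1. Its strongest summit lay 482 bp before its own start and 318 bp from that of its head-to-head neighbour 2700049A03Rik, so the peak cannot be given to either gene. Timm10b had 70.79 in CDK6-WT replicate 1, no peak in CDK6-WT replicate 2, and 64.77 and 36.23 with CDK6-K43M. Timm8b and Timm10 had a peak in all 4 lists and means of 77.35 and 87.85. Timm8b had 94.05, 57.29, 90.34 and 67.73, and Timm10 98.55, 83.88, 98.49 and 70.47.

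Both MIA genes had a peak in all lists. Gfer, the sulfhydryl oxidase that recharges the pathway, had 85.14 and 76.70 with CDK6-WT and 87.12 and 85.77 with CDK6-K43M. The variants did not overlap, with K43M higher by 1.98 points in replicate 1 and by 9.07 in replicate 2, but CDK6-WT replicate 1 lay within 1 point of the lower CDK6-K43M value. Chchd4, the oxidoreductase Mia40, had 96.27, 73.42, 93.50 and 63.95.

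Of the 5 genes of the TIM23 channel, 2 had a peak in all lists. Timm50, a receptor of the channel, had 89.39, 59.34, 82.01 and 61.91 and was the higher of these. Timm23, the channel protein, had 85.92, 16.36, 62.20 and 40.31. Timm17a had 73.19, 33.60 and 78.83 and no peak in CDK6-K43M replicate 2. Timm17b had 47.97 and 28.54 in the replicate 1 lists alone, on 17 and 16 reads. Timm21, which links the channel to the respiratory chain, had 97.44 and 77.83 for CDK6-WT and 99.08 in CDK6-K43M replicate 1, on 51, 25 and 73 reads, and no peak in CDK6-K43M replicate 2. It thus stood near the top of both replicate 1 lists and was missing from the CDK6-K43M replicate 2 list. The 2 genes of TIM22 had peaks in every list, with Timm29 at 98.43, 83.88, 99.23 and 73.90 and Timm22 at 92.42, 78.95, 95.40 and 73.50.

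Of the 7 genes of the import motor, 4 had a peak in all lists, and their replicate 1 and replicate 2 values lay far apart. Hspa9, the mitochondrial Hsp70, had 98.23 and 0.0878 with CDK6-WT and 98.97 and 61.23 with CDK6-K43M. Its summits held 53, 14, 70 and 17 reads, and the local background was 4.35 reads in CDK6-WT replicate 2 against 1.85 to 2.28 in the other libraries. The CDK6-WT replicate 2 summit also lay elsewhere, at -14 bp from the start against -417, -402 and -392 bp in the other libraries, so its rank was read at another position. Grpel1, the nucleotide exchange factor of Hspa9, had 92.89, 2.52, 97.02 and 53.37, with the same background of 4.35 in CDK6-WT replicate 2. Grpel2, its paralogue, had 82.80, 19.54, 89.10 and 22.63 and the lowest mean of the motor genes with peaks in all lists. Dnajc19, a J protein, had 86.68, 7.607, 88.83 and 61.23. Timm44, which anchors the motor at the channel, had 91.09 in CDK6-WT replicate 1, no peak in CDK6-WT replicate 2, and 96.67 and 44.87 with CDK6-K43M. Dnajc15 had 90.72 and 91.89 and Pam16, the regulator of the J protein, 77.57 and 52.73, in the replicate 1 lists alone. All 7 motor genes were thus occupied in both replicate 1 lists, and each replicate 2 value lay below both replicate 1 values or was absent.

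The chaperonin genes Hspd1 and Hspe1, which encode Hsp60 and Hsp10, had the highest mean percentile of the members (98.34). They lie head to head, and their starts nearest to the strongest summit were 108 bp apart. Their strongest peak was the same peak in all 4 lists, so both genes carry 1 measurement. It had 99.13 and 99.52 with CDK6-WT and 97.60 and 97.10 with CDK6-K43M, on 56, 74, 58 and 52 reads. CDK6-K43M differed from CDK6-WT by -1.54 points in replicate 1 and by -2.43 points in replicate 2, and here the replicate numbers overlapped. The genes of the processing peptidase had peaks in every list. Pmpcb, the catalytic subunit, had 93.01, 77.83, 98.24 and 83.51, and Pmpca 90.95, 19.54, 93.68 and 65.34. The Pmpcb value of CDK6-WT replicate 2 came from a separate region, with its summit at -1374 bp from the nearest own start. In that list the region at the Pmpcb start had 50.13, on 16 reads.

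**Figure D3:**
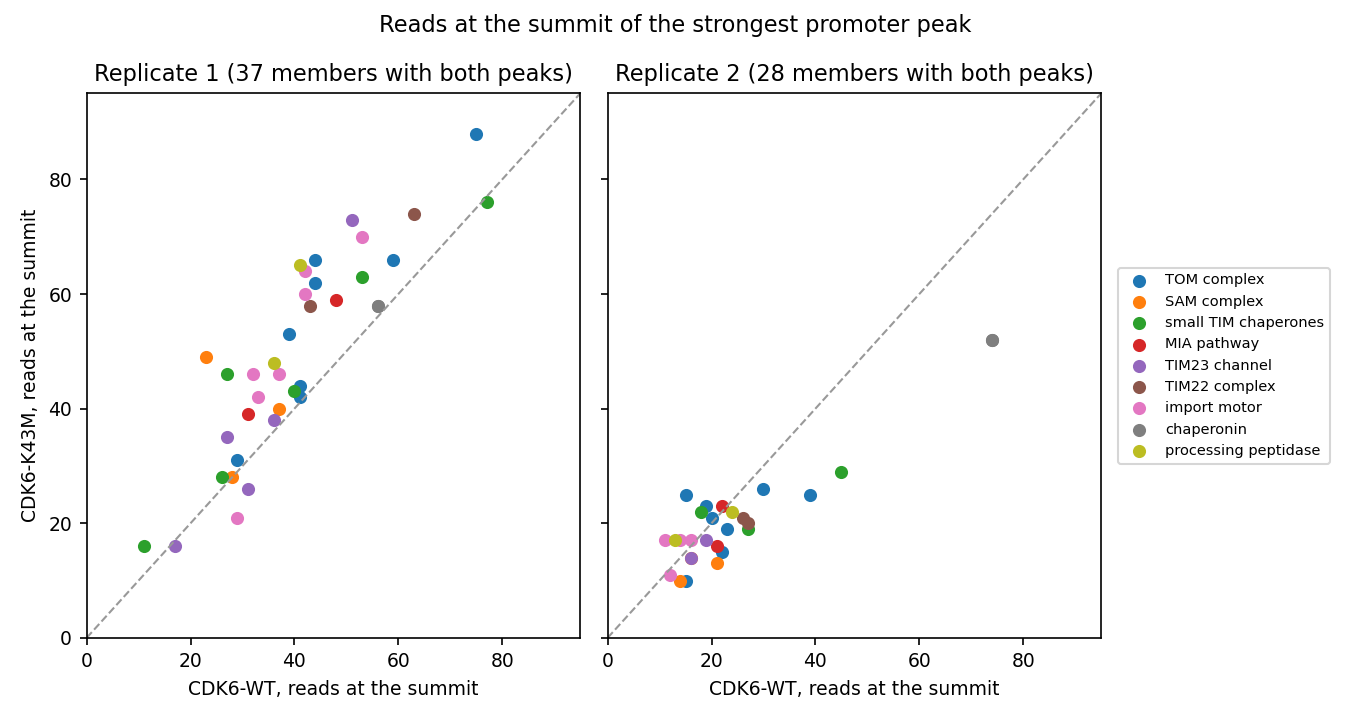
Reads at the summit of the strongest promoter peak, CDK6-WT (horizontal axis) against CDK6-K43M (vertical axis), for replicate 1 (left, 37 genes) and replicate 2 (right, 28 genes with both peaks); colours give the role and the dashed line marks equal reads. Medians of the plotted genes were 40 and 48 reads in replicate 1 and 20.5 and 19 in replicate 2, and the chaperonin point of replicate 2, shared by Hspd1 and Hspe1, lies at 74 and 52 reads.

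Across the 28 genes with a peak in all lists, the percentiles of the variants overlapped at 23. CDK6-K43M was higher without overlap at 2 genes, Tomm70a and Gfer, and CDK6-WT at 3, Mtx2 and the pair Hspd1 and Hspe1. The count for CDK6-K43M was 0 with a minimum −log10 q of 5 or 10, with the top 10000 peaks per list or with lists of equal length, and 1 by fold enrichment. Among all 7311 protein-coding genes with 4 peaks, 6.76% were higher with CDK6-K43M and 3.61% with CDK6-WT. The exact two-sided permutation test gave p = 0.333 at each of these genes, and 2 libraries against 2 cannot give a p below 0.33. Mean differences (CDK6-K43M minus CDK6-WT) were 9.84 points for Tomm70a, 5.53 for Gfer, -19.5 for Mtx2 and -1.98 for the chaperonin pair. Within replicate 1, CDK6-K43M ranked higher at 20 of the 37 genes and lower at 17, with a median difference of 0.744 points. Within replicate 2 it ranked higher at 14 of 28 and lower at 14, with a median of -0.0855. At these 28 genes, CDK6-K43M ranked higher at 14 within replicate 1, with a median of 0.13. Among the 7311 genes with 4 peaks it ranked higher at 58.0% within replicate 1, with a median of 1.09. Within replicate 2 that share was 49.3%, with a median of -0.154. The members were not tested against these shares. The sign was the same in both replicate numbers at 18 of the 28 genes, 9 in each direction, and opposite at 10. No share of all genes is given for this count of signs. When a missing peak was set to 0, the median percentile over the 37 genes was 68.6 ± 31.5 for CDK6-WT and 77.0 ± 22.3 for CDK6-K43M (SD, n = 2 each). This difference of 8.40 points, 1.90 within replicate 1 and 14.9 within replicate 2, was less than the spread between libraries of a variant. That spread includes the split by replicate number. The difference was -13.92 without CDK6-WT replicate 2 and -7.398 without CDK6-K43M replicate 1, and 30.73 and 24.20 without CDK6-WT replicate 1 and CDK6-K43M replicate 2.

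The replicate number separated the members more than the variant did. At 22 of the 28 genes both replicate 1 percentiles exceeded both replicate 2 percentiles, and at 0 genes the reverse held; among all protein-coding genes with 4 peaks the share was 69.4%. The mean of replicate 1 exceeded that of replicate 2 at 26 of 28 members (92.9%) and at 82.9% of all such genes, with median differences of 25.6 and 20.8 points. The recovered depths of replicates 1 and 2 were 10.08 and 10.49 reads per kb with CDK6-WT, and 12.04 and 9.563 with CDK6-K43M, and the part of depth in this split was not tested. What the replicate number stands for is not given in the labels.

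Peaks lay close to the gene starts. The strongest summit of 33 members fell within 150 bp of an own transcript start, and 27 summits lay before the start and 10 after it. In CDK6-WT replicate 1, 91.9% of the members' summits were within 150 bp of an own start, against 72.5% for all occupied protein-coding genes, and the corresponding values were 77.4% and 64.9% in CDK6-WT replicate 2, 86.5% and 72.3% in CDK6-K43M replicate 1 and 86.7% and 63.0% in CDK6-K43M replicate 2. The exceptions were Mtx1 and Timm9, described above, Tomm40 (611 bp before the start) and Hspa9 (402 bp before). Summits of a gene agreed between libraries to within 150 bp at 22 of the 28 genes with 4 peaks, with a median range of 79 bp. Hspd1 and Hspe1 enter this count with the same peak, and no share of all genes is given for it. Ranges of 361, 200, 296 and 403 bp were found at Tomm34, Samm50, Grpel2 and Hspa9. The widest ranges belonged to Mtx1 and to Pmpcb, at which the strongest CDK6-WT replicate 2 peak lay in another region before the gene. Median peak widths of the members were 629 bp and 354 bp for CDK6-WT and 676 bp and 374.5 bp for CDK6-K43M, against 505 bp, 354 bp, 591 bp and 339 bp for all occupied genes.

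**Figure D4:**
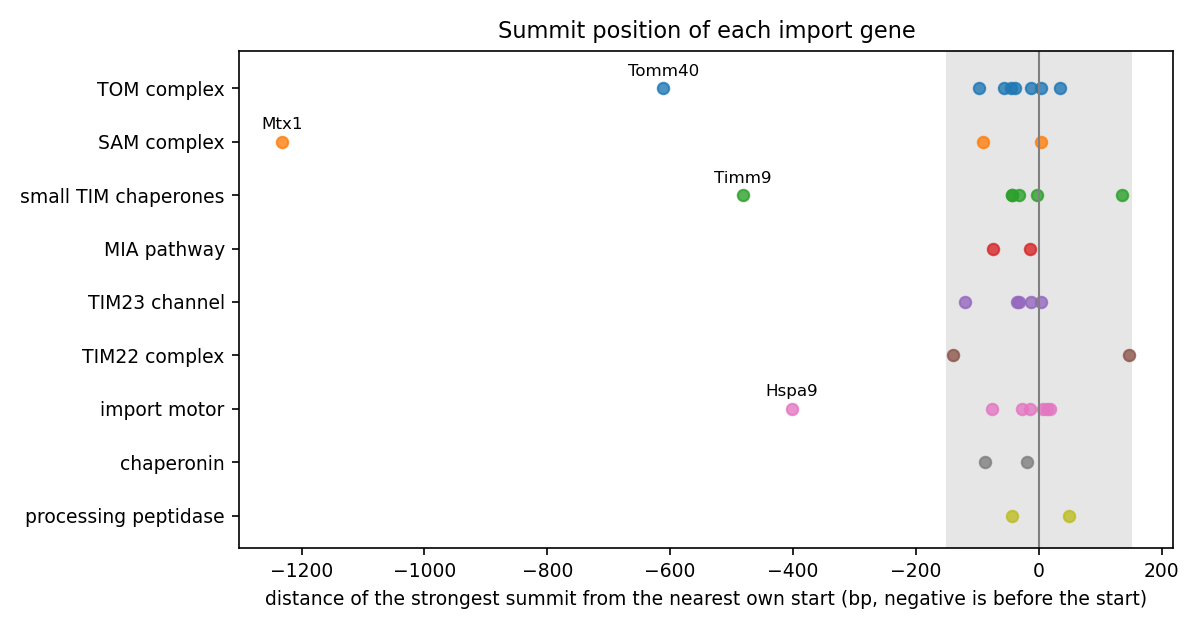
Distance in bp from the nearest own transcript start to the strongest promoter summit of each of the 37 import genes (horizontal axis, negative before the start), by role (rows). The grey band marks 150 bp to either side and holds 33 genes; Mtx1, Tomm40, Timm9 and Hspa9 lie outside it, at -1232, -611, -482 and -402 bp.

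Many import genes share their promoter with a neighbour. A start of another protein-coding gene lay head to head within 1000 bp at 13 of the 37 members (35.1%), compared with 10.9% of all protein-coding genes. Among genes bound by both variants the shares were 12 of 33 (36.4%) and 21.3%. The pairs included Timm8b with Sdhd, a subunit of respiratory complex II (98 bp), Timm10b with Arfip2 (32 bp), Timm23 with Parg (51 bp), Timm17b with Pqbp1 (88 bp), Gfer with Noxo1 (78 bp), Chchd4 with Tmem43 (157 bp) and Pmpca with Entr1 (23 bp). A peak at such a site cannot be assigned to either gene, and at 5 members, Mtx1, Timm9, Timm29, Hspe1 and Pmpca, the start nearest to the strongest summit was that of another gene.

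Other gene groups of the organelle were occupied to a like degree. The 78 mitochondrial ribosomal protein genes had a region bound by both variants at 73 (93.6%) and the 36 subunit genes of complex I at 32 (88.9%). Of 15 further genes of import and processing, 13 had a region bound by both, and Timm8a2, a paralogue of Timm8a1, was the gene without a peak in any list. All 9 mitochondrial protease genes and 5 of 6 genes of MICOS, the complex that shapes the cristae, had such a region. Median percentiles in CDK6-WT replicates 1 and 2 were 88.3 and 63.4 for the ribosomal genes and 89.6 and 61.2 for complex I, and with CDK6-K43M replicate 2 they were 60.9 and 58.4. These shares are given side by side and were not tested.

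Import promoters are rich in CpG dinucleotides, as promoters of housekeeping genes often are. The ratio of observed to expected CpG within 500 bp of the gene start had a median of 0.770 (range 0.437 to 0.936) for the members and 0.552 for all protein-coding genes. A ratio of at least 0.6 was found at 34 members (91.9%) and 45.9% of all genes. With the background restricted to such genes, 30 of 34 members (88.2%) and 68.1% of 10078 genes had a region bound by both variants. The gap between the members and the background was therefore smaller among CpG-rich promoters.

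Of the 7 motifs searched, the ETS core had the widest gap to the background in percentage points. It lay within 100 bp of the summit at 45.9% of the import genes and 18.7% of 11399 occupied promoters, or 21.7% of those with a CpG ratio of at least 0.6. The nearest match lay 2 bp to 82 bp from the summit (median 26 bp), and 8 genes had more than 1 match, among them Tomm22 and Timm10 with 3 each. The share was 41.0% for the mitochondrial ribosomal genes and 11.1% for complex I. A region bound by both variants was found at 17 of 17 import genes with the core and 16 of 20 without it, while the shares among all occupied promoters were 87.6% and 78.1%. Hspd1 and Hspe1 contribute the same window to these counts.

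Within 100 bp of the summit, the other motifs were near or below the background except for the heat shock element. Its core TTCNNGAA occurred at 5 members (13.5%) and 4.57% of occupied promoters. These were Tomm22, Timm10, Timm13, Hspd1 and Hspe1. At Tomm22 and Timm10 every match overlapped an ETS core, which leaves 3 members (8.11%) in 2 windows, against 3.67%. The NRF-1 core GCATGCGC occurred at Tomm7 and Timm9, or 5.41% of the members and 5.45% of occupied promoters. It was found at 12.8% of the ribosomal genes and 11.1% of complex I genes. Only the exact string GCATGCGC was counted on either strand, so variant forms of the NRF-1 site are not in these shares. The SP1 core GGGCGGGG was found at 18.9% of the members and 21.3% of occupied promoters, the NFY core CCAAT at 18.9% and 25.6%, the YY1 core AAGATGGC at 2.70% and 4.74%, and the E-box CACGTG at 8.11% and 8.37%. A match is a run of letters and not a binding site, and a window without a match says nothing about the factor.

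**Figure D5:**
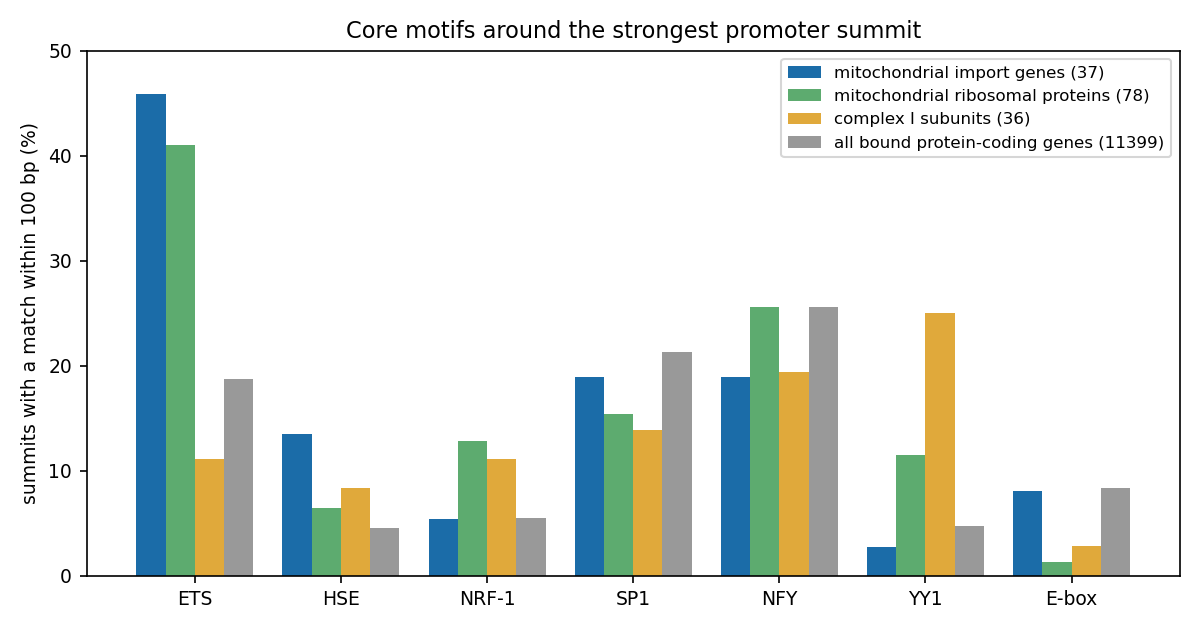
Share of strongest promoter summits with at least 1 match of each core within 100 bp on either strand (percent, vertical axis) for 37 import genes, 78 mitochondrial ribosomal genes, 36 complex I genes and 11399 occupied protein-coding promoters. The ETS core stands at 45.9% of the import genes, 41.0% of the ribosomal genes, 11.1% of the complex I genes and 18.7% of all occupied promoters.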

How the data were processed

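Per the labels and the study's methods, the authors checked reads with FastQC 0.11.5, trimmed them with Trimmomatic 0.36, aligned them to mm10 with BWA 0.7.15, filtered them with bedtools and SAMtools 1.3.1, and called peaks per library with MACS2 2.1.0. The deposited lists give a score, the fold enrichment (a ratio), the −log10 p-value and −log10 q-value, and other information, the summit offset. They begin at a −log10 q of 1.31 to 1.34. Reads at summits were solved from fold enrichment and −log10 p (tolerance 0.001), and percentiles of −log10 q were computed within each list.

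Promoters used GENCODE M21 (the study used M13) on GRCm38, with RefSeq's GRCm38.p6 for sequence. Variants were compared per gene by exact permutation of 4 libraries. Promoter overlap, the classes of regions and the recovery of reads were tested on simulated lists. Named genes were members without 4 peaks, the extremes of each role and those with the largest differences without overlap, and others are given by their values. The members and lists were chosen with earlier results of these data known. Alternatives were stricter thresholds, equal list lengths, other windows, ranking by fold enrichment, leaving out libraries and the replicate number as a block; counting Hspd1 and Hspe1 once, members nearest to their own start, and CpG-rich background were added after seeing the data. Scripts ran in Python 3.11.15 (pysam 0.24.0, scipy 1.17.1, pandas 2.3.3, numpy 2.4.6).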

Additional observations from a re-analysis of the deposited data

How the results depend on the processing

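Of 94 alternatives to the counts and medians over members, 15 moved a count or mean count by over 1.5 times, and no difference moved by more than 1 SD of the libraries of a variant. That SD is wide with 2 libraries and includes the split by replicate number, and 5 of 25 differences over members changed sign. Of 28 differences of single members, Timm8b changed sign by fold enrichment (3.363 to -3.343) and Tomm40 went from 2.541 to 9.011. Stricter thresholds left more members in the replicate 1 lists (35 and 34 at a minimum −log10 q of 10) than in the replicate 2 lists (14 and 14). Shares of all genes are not given at the stricter settings, so the counts of members under them are not set against the whole lists. With a minimum −log10 q of 5, members with a peak in all 4 lists fell from 28 to 18 and those in the replicate 1 lists alone rose from 4 to 7. With a minimum of 10 these counts were 11 and 17, and 17 members were bound by both variants. With the top 10000 peaks per list they were 9, 13 and 15, and the mean over lists was 21.75 in place of 33.75. Genes higher with CDK6-K43M without overlap numbered 0 under each of these and with lists of equal length, and 1 by fold enrichment, in place of 2. With 200 bp windows 4 members held the NRF-1 core (10.8%), against 6.57% of occupied promoters. By fold enrichment the chaperonin difference was -3.805 for Hspd1 and Hspe1. The peak count difference of -0.5 became 3.0 with a minimum −log10 q of 5, and 2.5, -3.5, -4.0 and 3.0 without CDK6-WT replicates 1 and 2 and CDK6-K43M replicates 1 and 2. Leaving out each library gave differences of the median percentile, with no peak at 0, of -13.92 to 30.73 (8.401 with all), and 30 to 37 members bound by both, by the definition adapted to 3 lists. With the replicate number as a block the differences stayed at -0.5 genes and 8.401 points, and with 2 numbers the labels do not show that they pair the libraries. Counting Hspd1 and Hspe1 once left 32 members bound by both, and members whose own start is nearest to the summit left 28. Median summit reads of 18 to 20 in replicate 2 limit what a missing peak shows.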
